A study of Mus musculus with 4 samples.

Results

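The genes described here are the immunoglobulin variable (V), diversity (D), joining (J) and constant (C) segments, read in bone marrow cells sorted as long-term haematopoietic stem cells of the mouse. Members were the genes that GENCODE M21 types as immunoglobulin V, D, J or C and that reached 5 FPKM (fragments relative to gene length and sequencing depth) in WT replicate 1, KO replicate 1 or KO replicate 2. That gave 165 of 264 annotated segments, among 51912 Ensembl genes in each file. The members were chosen by their levels in those 3 libraries, so levels in them are a description and carry no test. The WT and the Fam122a KO group had 2 libraries each, all from C57BL/6 mice aged 8 to 12 weeks. Each library held RNA of cells pooled from 3 animals, sorted as LSK (lineage-negative, Sca1 and Kit positive) CD34- Flk2- cells. The cDNA came from the SMART-Seq v4 kit for small amounts of RNA, without strand information. The labels used here do not say how the deletion was made or in which cells it acts, and with 2 pools a group the p-values measure only the spread between these libraries.

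An antibody is built from heavy and light chains. In each developing B cell a V, a J and, for the heavy chain, a D segment are joined into a variable exon, which is spliced to a constant gene. The heavy constant gene sets the isotype (Ighm for IgM, Ighd for IgD, the Ighg genes for IgG, Ighe for IgE, Igha for IgA), and the light chain comes from the kappa or the lambda locus. Plasma cells, which live in the bone marrow, secrete antibody and devote a large part of their RNA to it, while a stem cell has its segments unrearranged. A set of B cells of many origins uses many V genes, and an expanded clone uses the same V gene of each chain in all its cells.

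The segments in the GRCm38 annotation form 3 loci. The heavy locus is on chromosome 12, where the constant genes run from Igha (chr12:113254830-113260236) to Ighm (chr12:113418558-113422730) on the minus strand and the V genes lie at 113578504 to 116000461. The kappa locus is on chromosome 6, with V genes at 67555497 to 70704177 on both strands and Igkc at chr6:70726435-70726966. The lambda locus is on chromosome 16, with V genes Iglv1 at 19085017 to 19085500, Iglv3 at 19241207 to 19241690 and Iglv2 at 19260401 to 19260859. The last 75 coding bases of the V genes that the results turn on are shown 5′ to 3′ from the GENCODE M21 transcripts. Capitals mark the cysteine codon that ends the framework, after which the antigen-contacting loop begins.
Ighv1-55: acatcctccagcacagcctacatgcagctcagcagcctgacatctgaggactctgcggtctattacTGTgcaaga
Ighv3-6: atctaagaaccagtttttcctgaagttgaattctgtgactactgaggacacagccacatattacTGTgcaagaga
Ighv7-1: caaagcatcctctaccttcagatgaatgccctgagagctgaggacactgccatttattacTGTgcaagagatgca
Ighv11-2: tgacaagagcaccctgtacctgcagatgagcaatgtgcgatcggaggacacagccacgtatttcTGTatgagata
Igkv6-17: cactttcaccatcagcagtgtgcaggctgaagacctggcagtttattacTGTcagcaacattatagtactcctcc
Igkv6-23: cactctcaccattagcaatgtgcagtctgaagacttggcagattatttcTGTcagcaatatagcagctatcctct
Igkv6-20: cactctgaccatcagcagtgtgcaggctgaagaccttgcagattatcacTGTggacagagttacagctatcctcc
Igkv14-126: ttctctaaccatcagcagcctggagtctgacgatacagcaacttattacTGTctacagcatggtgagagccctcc
Igkv12-89: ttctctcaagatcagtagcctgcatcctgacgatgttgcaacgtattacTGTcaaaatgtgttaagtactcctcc
Iglv1: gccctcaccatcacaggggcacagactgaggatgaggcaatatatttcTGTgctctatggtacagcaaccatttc

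The D and J segments are far shorter, and a kappa and a heavy J segment are shown to make the difference in size plain. Capitals mark the stretch for the conserved Phe-Gly or Trp-Gly motif in them (TTCGGNNNNGGN in kappa, TGGGGNNNNGGN in heavy).
Igkj1: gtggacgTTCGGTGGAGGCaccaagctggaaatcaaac
Ighj1: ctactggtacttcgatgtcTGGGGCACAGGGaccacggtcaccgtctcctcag

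Facts of the whole series that touch these genes are few. Fam122a, the targeted gene, had a level of 18.4 FPKM in WT replicate 1 and 7.46 in WT replicate 2, and was listed at 0 in both KO libraries. Steps in the low values implied 2480000 to 6800000 fragments per library. WT replicate 2 stood apart. Loci that name no gene held 53.9% of its summed FPKM against 1.74% to 9.14% in the other libraries, and 2 of 5 stem cell markers were at 0 in it, among them Ly6a, which encodes the Sca1 antigen of the sort. In WT replicate 1, KO replicate 1 and KO replicate 2 the level of Ly6a was 201.1, 229.9 and 205 FPKM. Of the same list, Kit was at 2.26 and Hlf at 18.6 FPKM in WT replicate 2, each below the other libraries. Mecom went the other way, at 254 FPKM in WT replicate 2 against 46.8, 35.0 and 36.3 in WT replicate 1, KO replicate 1 and KO replicate 2. Counts of called genes below are for all 4 libraries, and sizes of differences are given again after leaving WT replicate 2 out.

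Immunoglobulin RNA was plentiful in 3 libraries and nearly absent from WT replicate 2. The 264 segments summed to 15976 FPKM in WT replicate 1, 370.6 in WT replicate 2, 11785 in KO replicate 1 and 18572 in KO replicate 2. These were 1.52%, 0.029%, 1.42% and 2.28% of all FPKM. WT replicate 1 thus lay between the KO libraries, and the groups overlapped. Igkc, the kappa constant gene, ranked 17, 18007, 25 and 13 among Ensembl genes in the same order of libraries. In bulk RNA, fewer cells of a type and less RNA per cell cannot be told apart. The sorted population was labelled as stem cells, and markers of plasma cells (Jchain, Mzb1, Xbp1, Sdc1, Tnfrsf17 and Prdm1) summed to 638 FPKM in WT replicate 1, 44.5 in WT replicate 2, 388 in KO replicate 1 and 503 in KO replicate 2. None of the 6 was at 0 in any library, but they did not move together. Prdm1 was at 22.7, 35.2, 0.96 and 0.87 FPKM in WT replicates 1 and 2 and KO replicates 1 and 2. Tnfrsf17 was at 0.41, 4.64, 0.52 and 0.89 FPKM in that order. Both were highest in WT replicate 2, where the other markers of the list were lowest. The part of these markers in the immunoglobulin levels was not tested.

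By locus, members were 80 of 113 heavy V genes, 72 of 102 kappa V genes, 3 of 3 lambda V genes, 6 of 8 heavy C genes, the single kappa C gene and 3 of 4 lambda C genes. None of the 19 D and 14 J segments was above 0 in any library. D segments are 10 to 29 bp and J segments 38 to 100 bp of exon. No gene of 80 bp or less, immunoglobulin or other, was above 0 in any library (0 of 1403), so the zeros of segments of that length carry no information on their RNA. Of genes of 81 to 200 bp, the class of the 100 bp segment Ighj2, 70 of 5272 were above 0 in at least 1 library. The annotated V genes are 294 to 501 bp, and 190 of 218 were above 0 in at least 1 library. On a V gene of 351 bp, 1 fragment was worth 2.06 FPKM in WT replicate 1, 2.82 in WT replicate 2, 1.32 in KO replicate 1 and 1.52 in KO replicate 2, so 5 FPKM stands at 2.43 to 3.77 fragments in the 3 libraries of the rule and at 1.77 in WT replicate 2. By the highest of the 3 libraries that the rule used, the members just inside the threshold were Ighv15-2, with 5.21 FPKM, and Ighv1-59, with 5.34 FPKM. Just outside lay Igkv4-51 at 4.44 FPKM and Igkv9-129 at 4.09 FPKM. In WT replicate 2, which the rule did not use, Ighv1-59 was at 11.6 and Igkv9-129 at 11.45 FPKM. As a gene class of the same kind, T cell receptor segments reached the threshold in 6 of 226 cases, among them the constant genes Trbc1 (7.56, 0.76, 15.5 and 12.2 FPKM in WT replicates 1 and 2 and KO replicates 1 and 2) and Trbc2.

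The light chain constant genes were led by Igkc, the constant region of the light chain that most mouse antibodies carry. Its level was 4768 FPKM in WT replicate 1, 1.55 in WT replicate 2, 2498 in KO replicate 1 and 4413 in KO replicate 2. The KO libraries both lay below WT replicate 1 and far above WT replicate 2. Iglc2, a lambda constant gene, was at 248, 1.62, 300.5 and 131 FPKM in the same order, and Iglc1 at 31.8, 1.65, 85.1 and 39.2 FPKM. Iglc3 was at 32.1 FPKM in WT replicate 1 and listed at 0 in the other libraries. Over the first 300 bases Iglc3 is 96.3% identical to Iglc2, so the values of both are uncertain. Iglc4 was listed at 0 in every library. The kappa share of constant light chain FPKM was 93.8% in WT replicate 1, 86.6% in KO replicate 1 and 96.3% in KO replicate 2, and WT replicate 1 lay between the KO libraries. Taken from V genes instead, the kappa share was 94.5%, 83.4% and 91.7%, and WT replicate 1 lay above both KO libraries. The plot of constant genes shows these levels.

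**Figure D1:**
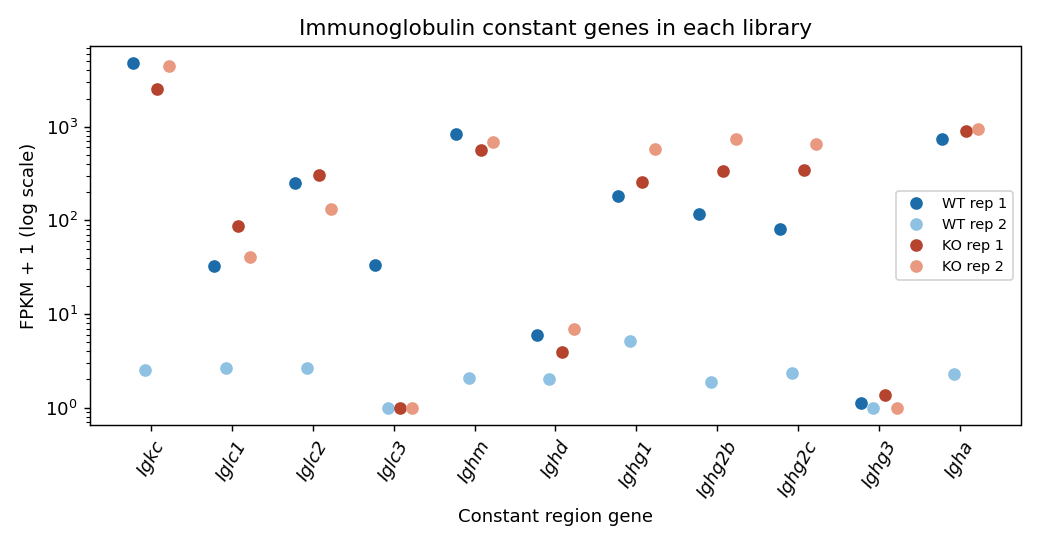
Level of each immunoglobulin constant gene (FPKM + 1, log axis) in the 4 libraries, 1 point per library. WT replicate 2 lies below 10 for every gene, while WT replicate 1 and both KO libraries share high Igkc, Ighm and Igha, and both KO libraries lie above WT replicate 1 at Ighg1, Ighg2b and Ighg2c.

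The heavy constant genes showed IgM, IgG and IgA together, and both KO libraries held more IgG RNA than either WT library. Ighm was at 837 FPKM in WT replicate 1, 1.07 in WT replicate 2, 564 in KO replicate 1 and 679 in KO replicate 2. Igha, the isotype of mucosal antibody, was at 738, 1.29, 905 and 940 FPKM in that order. Ighg1 was at 182, 4.16, 254 and 582 FPKM, Ighg2b at 117, 0.89, 335 and 740.0 FPKM, and Ighg2c at 80.7, 1.33, 345 and 646 FPKM. For Ighg1, Ighg2b, Ighg2c and Igha both KO libraries were higher than both WT libraries, and for Ighm the KO libraries lay between the WT libraries. Over all genes tested, 30.8% had both KO libraries above both WT libraries, so that order alone does not set these genes apart. Ighd was low, at 4.95, 1, 2.92 and 5.93 FPKM. Ighg3 did not exceed 0.35 FPKM in any library, and Ighe was listed at 0 in all 4. Neither is a member.

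As a share of heavy constant FPKM, IgM made up 42.7% in WT replicate 1, 23.4% in KO replicate 1 and 18.9% in KO replicate 2. IgG made up 19.4%, 38.8% and 54.8%, with Ighg2c alone at 4.12%, 14.3% and 18.0%. IgA made up 37.7%, 37.6% and 26.2%. WT replicate 2 gave 9.7 FPKM of heavy constant signal in all, so its mix is not read. With 1 WT library of usable level the difference in mix between WT replicate 1 and the KO pair has no replicate check on the WT side, and 2 libraries against 2 cannot reach 0.05 in an exact permutation test. Differences here are KO minus WT on the log2(FPKM + 1) scale. In the limma fit over the 3 libraries other than WT replicate 2, Ighg2c was higher in KO by 2.53 and Ighg2b by 2.08. With equal Ensembl totals as well, a setting chosen after seeing the data, the differences were 2.77 and 2.31. These 3 libraries chose the members and hold 1 WT library, so the differences are sizes only and no call is made. With all 4 libraries the difference was 5.10 for Ighg2c (SE 1.97, limma adjusted p = 0.216) and 5.06 for Ighg2b (SE 2.20, limma adjusted p = 0.261).

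**Figure D2:**
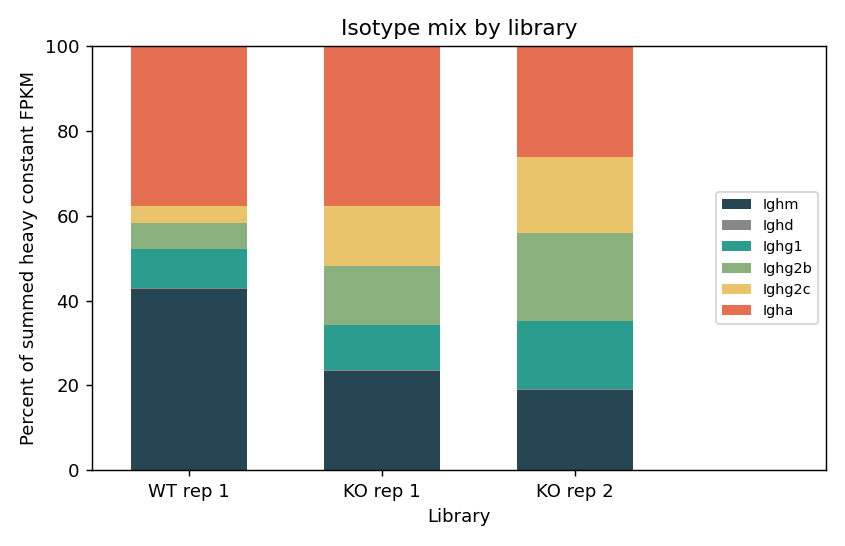
Stacked bars of the percent of summed heavy constant FPKM in each gene, for WT replicate 1 and both KO libraries. The Ighm bar is 42.7% in WT replicate 1 against 23.4% and 18.9% in KO, and the 3 Ighg bars together are 19.4% against 38.8% and 54.8%.

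Summed V and summed C signal were close to each other in the heavy and kappa loci of 3 libraries and far apart in WT replicate 2. A rearranged transcript holds a V and a C region, so on a scale per length their sums are comparable. For the heavy locus, summed V over summed C was 1.29 in WT replicate 1, 1.08 in KO replicate 1 and 1.05 in KO replicate 2. For the kappa locus it was 1.27, 1.30 and 1.38, and for the lambda locus 1.12, 1.67 and 3.26. In WT replicate 2 the ratios were 13.8, 138 and 2.66. Its V signal of 134 FPKM in the heavy locus and 213 FPKM in the kappa locus stood beside 9.7 and 1.6 FPKM of C signal, and Igkc held about 1.2 implied fragments. The large share of loci that name no gene in WT replicate 2 (53.9%) moves with this, and its part was not tested. The FPKM values follow a length shortened by 208 to 240 bp, which weighs on V genes more than on the longer C genes. With FPKM times full exonic length the heavy ratio was 0.215, 0.178 and 0.172 and the kappa ratio 0.875, 0.914 and 0.966 in WT replicate 1, KO replicate 1 and KO replicate 2. That product is no longer a scale per length, so its ratio falls with the greater length of the C genes. It is not a V to C ratio corrected for the shortened length.

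**Figure D3:**
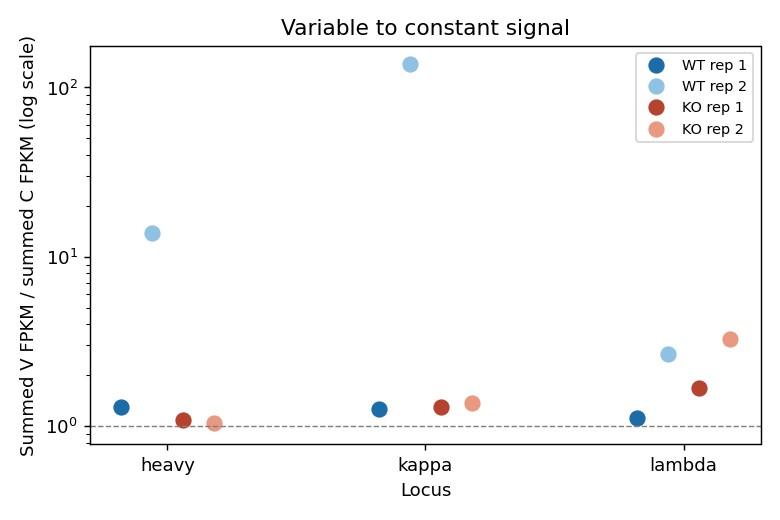
Summed V FPKM over summed C FPKM (log axis) for the heavy, kappa and lambda loci, 1 point per library, with a dashed line at 1. WT replicate 1 and both KO libraries lie between 1.05 and 1.38 in the heavy and kappa loci, and WT replicate 2 lies at 13.8 and 138.

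Heavy V signal was spread over many genes in WT replicate 1 and both KO libraries. Of the 113 annotated, 82 were above 0 in WT replicate 1, 23 in WT replicate 2, 70 in KO replicate 1 and 75 in KO replicate 2. The highest single gene held 9.99% of heavy V FPKM in WT replicate 1 (Ighv7-1), 5.33% in KO replicate 1 (Ighv5-17) and 8.36% in KO replicate 2 (Ighv3-6). Counted in implied fragments, the leading gene of WT replicate 1 was Ighv1-55 with 10.4%, ahead of Ighv7-1 with 8.90%. The effective number of V genes, which is 1 over the sum of squared shares and equals the number of genes if all are used alike, was 27.7, 36.3 and 31.9. It took 11, 14 and 12 genes to reach 50% of the heavy V signal. Ighv1-55 had the highest mean over these libraries, at 209, 127 and 196 FPKM in WT replicate 1, KO replicate 1 and KO replicate 2. Ighv7-1 was at 252, 120 and 49.1 FPKM in the same libraries, and Ighv3-6 at 81.7, 133 and 314 FPKM. Ighv1-64 was at 169, 111 and 85.0 FPKM and Ighv1-19 at 98.9, 67.4 and 193 FPKM. All 5 of these genes were listed at 0 in WT replicate 2, where 3 fragments on a 351 bp gene would give 8.46 FPKM. In that library the highest heavy V gene was Ighv6-4, at 14.1 FPKM or 5.2 implied fragments.

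Kappa V signal was also spread over many genes, and Igkv6-17 led in both KO libraries. Of 102 annotated, 73 were above 0 in WT replicate 1, 30 in WT replicate 2, 58 in KO replicate 1 and 66 in KO replicate 2. The highest gene was Igkv14-126 in WT replicate 1 with 10.0% of kappa V FPKM. Igkv6-17 held 10.7% in KO replicate 1 and 9.82% in KO replicate 2. The effective number was 22.7, 21.7 and 26.0, and 8, 8 and 10 genes reached 50%. Igkv6-17 was at 498 FPKM in WT replicate 1, 346 in KO replicate 1 and 597 in KO replicate 2, and Igkv3-4 at 426, 197 and 424 FPKM. Igkv6-23 was at 237, 116 and 478 FPKM, and Igkv15-103 at 519, 166 and 139 FPKM. In WT replicate 2, Igkv3-4 was at 0.98 FPKM, Igkv6-17, Igkv6-23, Igkv15-103 and Igkv14-126 were at 0, and the highest was Igkv18-36 at 21.4 FPKM or 7.2 implied fragments, a gene listed at 0 in the other libraries. Lambda V signal came mostly from Iglv1, at 264, 422 and 453 FPKM, which was 75.3%, 65.5% and 81.8% of lambda V FPKM. Iglv2 was at 75.9, 102 and 28.7 FPKM and Iglv3 at 10.6, 120.0 and 72.1 FPKM in the same order. The lambda locus of the mouse holds few V genes, so a high share of 1 gene there does not compare with the other loci.

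**Figure D4:**
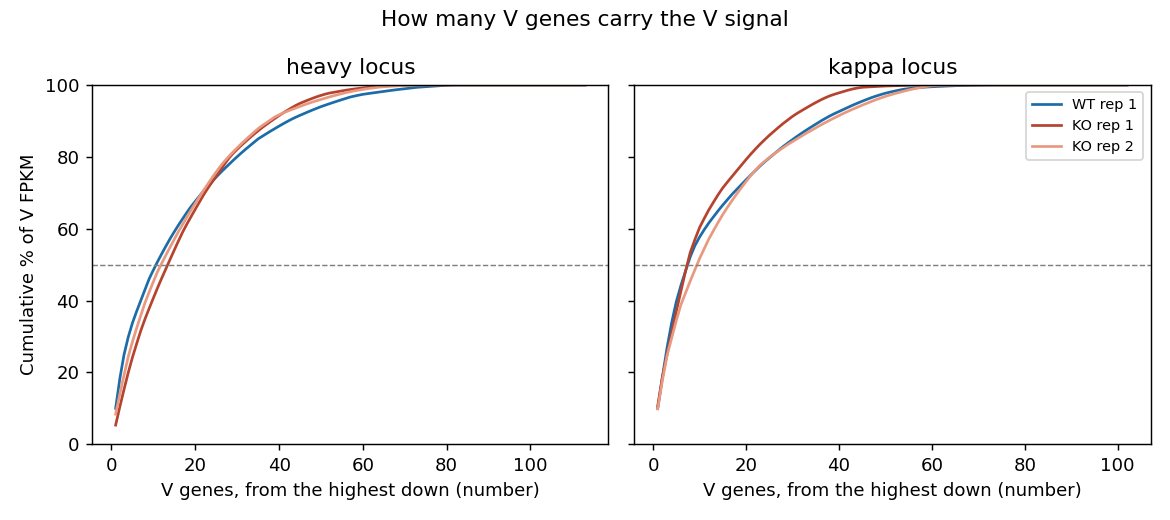
Cumulative percent of V FPKM against the number of V genes, taken from the highest down, for the heavy and kappa loci in WT replicate 1 and both KO libraries, with a dashed line at 50%. The curves rise gradually and cross the line at 11, 14 and 12 heavy genes and at 8, 8 and 10 kappa genes.

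Some V genes were high mainly in 1 library. Igkv14-126 was at 606 FPKM in WT replicate 1 (312 implied fragments), listed at 0 in WT replicate 2 and KO replicate 1, and at 48.1 FPKM in KO replicate 2. Ighv11-2 was at 123 FPKM in WT replicate 1 (117 implied fragments), 0 in WT replicate 2 and KO replicate 1, and 3.90 FPKM in KO replicate 2. These 2 genes rank high in the same library, and Ighv11-2 paired with Igkv14-126 is a known antibody of B-1 cells against phosphatidylcholine. Ighv11-2 was chosen after its values were seen, and bulk RNA does not pair chains. Its sequence is 98.9% identical to Ighv11-1, which was at 4.05, 8.41, 0 and 0 FPKM in WT replicates 1 and 2 and KO replicates 1 and 2. Igkv12-89 was at 355 FPKM in WT replicate 1, 0 in WT replicate 2, 2.21 in KO replicate 1 and 0 in KO replicate 2.

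The KO libraries also differed from each other. By the log2 ratio of KO replicate 2 to KO replicate 1, taken on FPKM + 1, the most unequal members on the high side were Igkv6-20 (7.02), Igkv8-19 (6.67) and Ighv1-52 (6.24). Igkv6-20 was at 0.85 FPKM in WT replicate 1, 0 in WT replicate 2, 1.09 in KO replicate 1 and 269 in KO replicate 2, where it held 216 implied fragments. Igkv6-20 is 98.6% identical to Igkv6-29, so its value is uncertain, and 82.4% identical to Igkv6-17, the family's leading gene. Igkv8-19 was at 80.5 FPKM in WT replicate 1 and at 0 and 101.2 FPKM in the KO libraries. On the low side were Igkv12-38 (-5.74), Ighv1-20 (-4.83) and Ighv1-63 (-4.53). Igkv12-38 was at 81.6 FPKM in WT replicate 1, 52.5 in KO replicate 1 and 0 in KO replicate 2.

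Of the 155 V members, 81 reached 5 FPKM in all of WT replicate 1, KO replicate 1 and KO replicate 2. Another 15 did so in WT replicate 1 only, 9 in KO replicate 1 only, 13 in KO replicate 2 only, 11 in both KO libraries only and 26 in WT replicate 1 and 1 KO library. In WT replicate 2, 118 of the 155 were at 0. Across the 113 heavy V genes the correlation of log2(FPKM + 1) was 0.595 between WT replicate 1 and KO replicate 1, 0.752 between WT replicate 1 and KO replicate 2, and 0.687 between the KO libraries (Pearson's r, a description over genes that are not independent). Over the 102 kappa V genes these values were 0.670, 0.669 and 0.699. WT replicate 2 correlated with the other libraries at 0.014 to 0.054 in the heavy and -0.108 to -0.046 in the kappa locus. In the heavy locus the value for the KO pair lay between those of WT replicate 1 with each KO library, and in the kappa locus it lay above both. With a pseudocount of 0.1 that kappa order did not hold, at 0.674 for the KO pair against 0.664 and 0.678 for WT replicate 1 with KO replicates 1 and 2.

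V families and positions gave a further view of use. The Ighv1 family, the largest of the heavy locus with 53 annotated genes, held 52.3% of heavy V FPKM in WT replicate 1, 58.7% in WT replicate 2, 52.0% in KO replicate 1 and 56.8% in KO replicate 2. The Igkv6 family held 15.5% of kappa V FPKM in WT replicate 1, 24.0% in KO replicate 1 and 27.2% in KO replicate 2. The Igkv14 family held 14.9%, 2.12% and 3.25%. The Igkv4 family, with 26 annotated genes, held 7.05%, 8.13% and 9.48% in these libraries and 54.2% in WT replicate 2. The V genes of each locus were also split by distance from the J segments. The 34 kappa V genes farthest away held 50.2% of kappa V FPKM in WT replicate 1 against 28.5% and 24.9% in the KO libraries. The 34 nearest held 33.9% against 47.6% and 55.6%. For the heavy locus the 38 nearest held 35.2%, 37.2% and 26.8% in the same order, so there WT replicate 1 lay between the KO libraries. Igkv14-126, Igkv15-103 and Igkv12-89 are among the farthest and Igkv6-17 among the nearest. The split rests on 1 WT library.

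**Figure D5:**
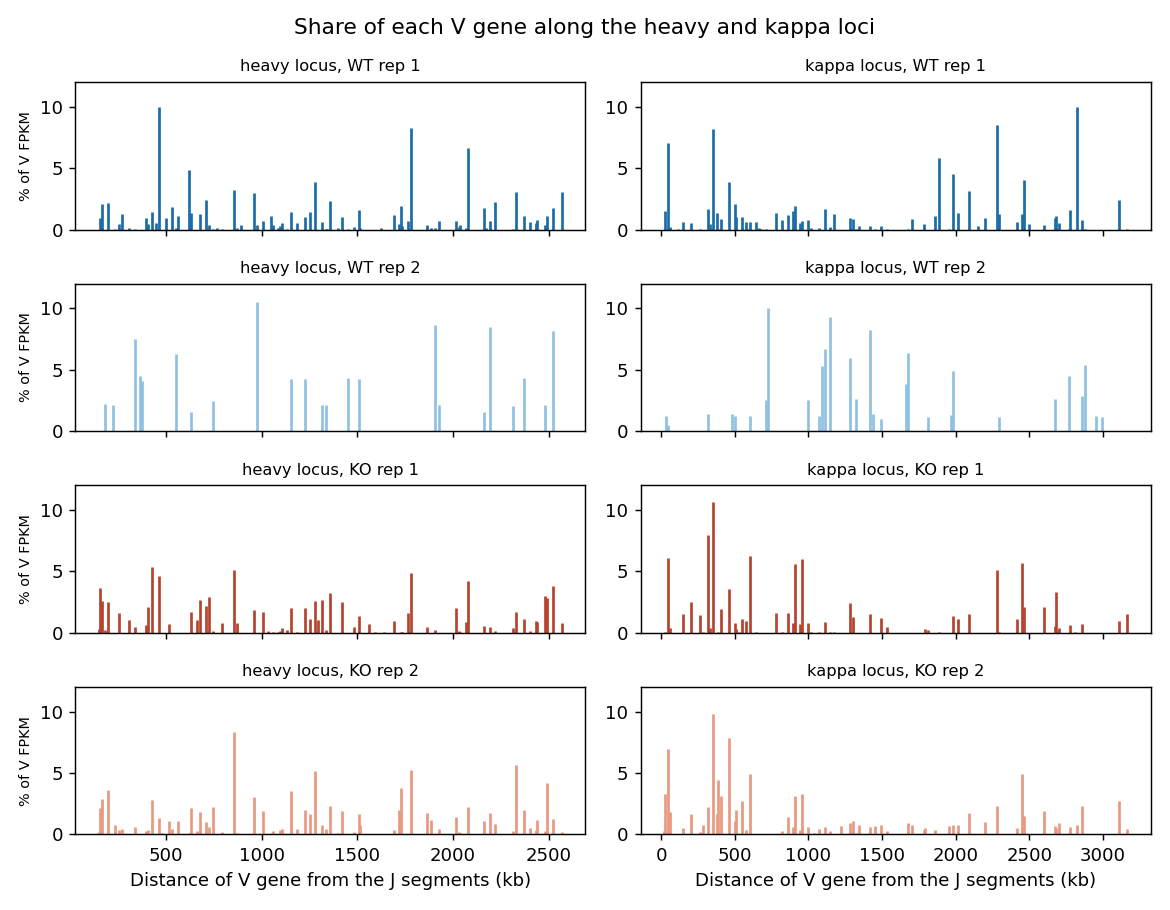
Percent of V FPKM in each V gene (vertical lines) against its distance from the J segments in kb, for the heavy (left) and kappa (right) loci, 1 row per library. Tall lines stand at both ends of the kappa locus in WT replicate 1 (50.2% of FPKM in the 34 farthest genes), and mainly near the J segments in the KO libraries (28.5% and 24.9% in the 34 farthest). WT replicate 2 shows other genes.

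In the limma fit of KO against WT over all 4 libraries, no immunoglobulin gene passed an adjusted p of 0.05. Of 264 annotated segments 163 could be tested, since genes needed 1 FPKM in at least 2 libraries, and 155 of them were members. At an unadjusted p under 0.05, 11 of the 163 were higher and 6 lower in KO, while over all 18214 genes tested 233 were higher and 3837 lower, and none passed. The share called over all genes was 0.0% in each direction. The median log2 difference, KO minus WT, was 1.90 over the 163 and 0.22 over all genes tested. Both KO libraries were above both WT libraries for 56 of the 163 and below for 7, and the shares over all genes were 30.8% above and 35.7% below. Without WT replicate 2 the median over 155 immunoglobulin genes was 0.03, against 0.12 over all genes.

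Without WT replicate 2 the fit holds 1 WT library, so its differences are sizes only and no call is made. The spread then comes from the KO pair alone, WT replicate 1 is assumed to vary like it, and WT replicate 1, KO replicate 1 and KO replicate 2 are the libraries that chose the members. Igkv12-46 had 43.7 FPKM in WT replicate 1, 194 in KO replicate 1 and 200.3 in KO replicate 2, a difference of 2.15. Ighv2-2 was at 24.1 against 95.7 and 81.5 FPKM, a difference of 1.83. Other V genes were lower in KO. For Igkv12-89 the difference was -7.64. Igkv19-93 had 276 FPKM in WT replicate 1, 44.1 in KO replicate 1 and 45.0 in KO replicate 2, a difference of -2.61. Igkv16-104, Igkv4-57-1 and Igkv6-32 were at 78.7, 76.1 and 36.3 FPKM in WT replicate 1 and did not exceed 2.15 FPKM in KO. These 7 genes were chosen after their values were seen. After scaling each library to the same Ensembl total, the fit called 26 immunoglobulin genes higher and 10 lower, beside 8.23% and 3.93% of all genes.

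Among V members, both KO libraries lay above WT replicate 1 for 32 of 80 heavy and 17 of 72 kappa genes, and below it for 21 heavy and 29 kappa genes. Over all genes at 5 FPKM in these libraries the shares were 46.2% above and 40.0% below. Since the rule used these libraries nothing is read from the counts.

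The partners of the immunoglobulin chains were read from lists of known genes. For antibody secretion, 0 of 16 tested genes passed in either direction in the limma fit of all 4 libraries. Jchain, which joins IgM and IgA into polymers, was at 482 FPKM in WT replicate 1, 2.06 in WT replicate 2, 213 in KO replicate 1 and 289 in KO replicate 2, the order of libraries that Igkc showed. Mzb1, a chaperone of secreted IgM, was at 21.7, 0.63, 34.0 and 72.5 FPKM, and Xbp1, the secretory transcription factor, at 108, 0.78, 135 and 133 FPKM. Prdm1, a transcription factor of plasma cells, went another way, at 22.7, 35.2, 0.96 and 0.87 FPKM (limma adjusted p = 0.179 over 4 libraries, not tested without WT replicate 2).

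The surrogate light chain genes, which pair with a new heavy chain before a light chain exists, were higher in KO than in either WT library. Of all genes tested, 30.8% had both KO libraries above both WT libraries. Igll1 was at 42.0 FPKM in WT replicate 1, 1.81 in WT replicate 2, 399.6 in KO replicate 1 and 732 in KO replicate 2. Vpreb1 was at 26.0, 6.94, 317 and 451 FPKM, and Vpreb2 at 1.25, 0, 47.8 and 37.9 FPKM. None of 9 tested genes of the pre-B receptor list passed with 4 libraries (limma, median log2 difference 4.58). The list was chosen with earlier results of these data known, so its counts beside all genes are no test of enrichment. The fits without WT replicate 2 hold 1 WT library, which is assumed to vary like the KO pair. Their counts and p-values are therefore a description, and no call is made from them. Without WT replicate 2, 3 of 9 passed, Vpreb1, Vpreb2 and Vpreb3, with limma adjusted p of 0.042 to 0.0458, where 0.181% of all genes were called higher. With equal Ensembl totals as well, 8 of 9 were called higher, beside 8.23% of all genes. Blnk, a signalling adaptor, was at 10.6, 0.27, 71.1 and 138 FPKM and did not pass in the fit of all 4 libraries.

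No gene of the V(D)J recombination list passed with 4 libraries (limma, 8 tested), and none of the mature B cell list did (10 tested). Dntt, which adds bases at V(D)J joins, was at 14.4, 0.22, 107 and 203 FPKM, and Rag2 of the recombinase at 2.21, 0.37, 12.9 and 16.2 FPKM. Ebf1, an early B lineage factor, was at 2.1, 0.25, 23.9 and 41.5 FPKM. Cxcr5 and Cr2, genes of mature B cells, were lower in both KO libraries than in both WT libraries and were not tested without WT replicate 2. Of all genes tested, 35.7% had both KO libraries below both WT libraries. Markers of B cell precursors (Vpreb1, Igll1, Rag1 and Dntt) summed to 83.5, 11.2, 825 and 1390 FPKM, a gap that the summed immunoglobulin levels did not share. Rag1 did not share it either, at 0.99, 2.18, 1.75 and 3.72 FPKM, with WT replicate 2 above KO replicate 1.

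Sequence likeness limits which V gene a fragment can be given to. Over the transcripts, 81 of 155 V members are at least 95% identical to another V gene of their locus, 15 at least 98% and 0 fully. The median identity to the nearest V gene is 95.4% for heavy and 94.5% for kappa members. Igkv6-23 and Igkv6-15 are 94.5% identical. Igkv6-17, which led in both KO libraries, is 95.7% identical to its nearest gene Igkv6-25 and 91.1% identical to Igkv6-23. How the authors' counting treated fragments that fit several V genes is not given in the sources used here, so values of near-identical V genes are uncertain.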

How the data were processed

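RNA-seq of 4 libraries (2 WT, 2 Fam122a KO) was read from 1 deposited table per library. The values were taken as FPKM made by the authors, inferred from the values and not stated in a header. Per the submitters' processing notes, bcl2fastq, STAR 2.7.1a and HISAT2 2.1.0 were used with GRCm38.p5 and mm10. Which of them made the values, and with which annotation, is not given in the sources used here. Steps in low values gave implied fragments: 83.3% to 88.6% of single-exon genes lay within 0.1 of a whole number, with 208 to 240 bp taken off each length.

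GENCODE M21 gave gene types, coordinates and sequences (51633 of 51912 Ensembl genes matched). KO was compared with WT by limma 3.58.1 (R 4.3.3, intensity trend) on log2(FPKM + 1), which understates differences of low genes. Genes at 1 FPKM in at least 2 libraries were tested, p-values were adjusted by Benjamini-Hochberg over all genes and called under 0.05, two-sided. The fit was tested on simulated data. Loci with MSTRG identifiers (35791) stayed out of it. Alternatives covered the pseudocount, the filter, scaling, the replicate block and leaving out each library.

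Named genes were all constant genes, the 5 V genes per locus with the highest mean over WT replicate 1 and both KO libraries, the highest V gene of each library, the 3 members most unequal between the KO libraries on each side, those nearest the threshold, J segments, and up to 4 genes per pathway list with the smallest p. Cell type markers were named too. Members and lists were chosen with earlier results of these data known. Promoter motifs were not analysed here. Some genes of the pathway and marker lists are not reported here.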

Additional observations from a re-analysis of the deposited data

Results flagged for a closer look

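V pseudogenes are outside the comparisons of the report, and 2 of 154 reached 5 FPKM in each KO library while lying above both WT libraries. Gm38184 (chr12:115412927-115413123, heavy locus) was at 15.8 FPKM in KO replicate 1 and 31.0 in KO replicate 2, against 2.55 and 5.73 in WT. Its annotated exons come to 113 bp, which is less than the 208 to 240 bp that the values take off a gene's length, so its FPKM is less certain than that of a V gene. Igkv3-11 (kappa locus) had 7.18 FPKM in KO replicate 1 and 7.04 in KO replicate 2, against 3.2 and 4.6 in WT. Over all genes tested, 30.8% had both KO libraries above both WT libraries. The limits for choosing these 2 pseudogenes were set after their values were seen.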

How the results depend on the processing

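In the limma fit of KO against WT, pseudocounts of 0.1 and 5, either other filter, quantile normalization and equal Ensembl totals each called 0 genes in both directions. Leaving out 1 library gave 0 to 7971 genes higher and 0 to 3155 lower, with 0 to 98 immunoglobulin genes higher, 0 to 5 lower, 0 to 9 pre-B receptor genes higher, and a median immunoglobulin difference of 0.03 to 4.57. The high ends came without WT replicate 1 (7971 and 3155 genes, 98 immunoglobulin, 9 pre-B), except the 5 lower, without WT replicate 2, which called 25 genes higher and 196 lower. With equal Ensembl totals and no WT replicate 2, chosen after seeing the data, 1128 genes were higher and 539 lower, 26 and 10 of them immunoglobulin, and 8 pre-B genes were higher. The differences of Igkc and Ighm turned to -0.29 and -0.20 there, and Ighv1-55 to -0.17. The fit without WT replicate 1 tested 13875 genes, 129 of them immunoglobulin and 9 of the pre-B list. Its only WT library is WT replicate 2, which stood apart, and most genes of any kind were called in it. Its counts are therefore not read as a result of the immunoglobulin or pre-B genes. Every fit that leaves out 1 library leaves 1 library in a group, so no call is made from these counts. Over the fits that leave out 1 library, the differences ran from -0.52 to 10.35 for Igkc, -0.43 to 8.23 for Ighm, -0.40 to 7.31 for Ighv1-55 and -0.13 to 8.83 for Igkv6-17, lowest without WT replicate 2 and highest without WT replicate 1, and from -6.44 (without WT replicate 2) to 0.99 (without KO replicate 1) for Igkv14-126. The cause was not tested. WT and KO share replicate numbers. The replicate block called 0 genes. At an unadjusted limma p under 0.05, 34 of 163 immunoglobulin genes were higher and 6 lower. Over all 18214 genes tested, 301 were higher and 3900 lower. Deviations of same-numbered samples from their group means correlated at 0.055. With 2 libraries a group the WT deviation is only the gap between WT replicates 1 and 2, and WT replicate 2 stood apart. This value therefore cannot tell whether same-numbered samples share more than a number. With FPKM times exonic length, IgM was 35.5% in WT replicate 1 and 19.3% in KO replicate 1, the heavy V over C ratio was 0.215, 0.178 and 0.172, and the kappa ratio 0.875, 0.914 and 0.966 in WT replicate 1, KO replicate 1 and KO replicate 2. The V over C ratios of this product also carry the greater length of the C genes. With implied fragments, added after seeing the data, IgM was 34.6%, 18.9% and 15.3%, the effective number of heavy V genes in WT replicate 1 was 23.7, and its highest kappa V gene held 9.37%. Depth limits single V genes: on a V gene of 351 bp, 5 FPKM is 2.43, 3.77 and 3.3 fragments in WT replicate 1, KO replicate 1 and KO replicate 2. These limits cover counting error only.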
